A study of Mus musculus with 2 samples.

Results

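In mouse kidney assayed by DNase-seq, 1003 accessible sites were high in both libraries yet held no footprint in either. They were chosen by their own readout. A member was a peak of replicate 1 at or above the median peak height of its library, with no base of a footprint of that library inside it. It also had to overlap, by at least 1 bp, a replicate 2 peak that met both conditions. The members were 1003 of the 125393 replicate 1 peaks, and they corresponded to 1005 of the 177001 replicate 2 peaks. The height limit was 0.872 in replicate 1 and 0.691 in replicate 2. Of the 62858 high peaks of replicate 1, 7.8% held no footprint, and of the 88528 high peaks of replicate 2, 2.99% held none. Height and the absence of footprints therefore describe how the sites were selected and are not results.

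The study holds 2 samples of 1 group, with no treatment and no second condition. Each is kidney tissue from a male B6CASTF1/J mouse 25 days of age, a first-generation hybrid of C57BL/6J and CAST/EiJ. Although the libraries share a donor code, their labels name distinct biosamples and mice, so each was taken to come from its own mouse. Whole kidney mixes many cell types, so a site open in few cells and a site weakly open in many cannot be told apart. Since peaks of one library are not replicates of a condition, no p-value is given, and the intervals below are 95% intervals that cover counting error over peaks only. The intervals treat peaks as independent, although some adjoining members, such as the pair nearest to Cab39, had the same highest peak within 1 kb. They may therefore be too narrow.

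DNase I cuts DNA that is free of nucleosomes, so a stretch of dense cuts, called as a peak, marks accessible chromatin such as an active promoter or enhancer. Within a peak, a bound transcription factor can shield its own site from the enzyme. Such a short dip in cutting is called a footprint, and its visibility depends on how long the factor stays bound, on the local number of cuts and on the sequence preference of DNase I. Promoters of widely expressed genes often lie in CpG islands, stretches rich in G, C and CpG dinucleotides, whereas enhancers and many tissue-specific promoters are poorer in CpG.

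The sequences of 5 of the 15 highest members are written below, with every CpG in capitals. Being among the highest, they need not be typical of the members, which had a median width of 260 bp and averaged 8.17 CpGs per 100 bp. Pip5k1c encodes a kinase that makes a membrane phosphoinositide, Spice1 a spindle and centriole protein, Ska2 a kinetochore-associated protein, and Ostf1 a signalling adaptor. Gm25541 is annotated as a small nuclear RNA gene. All are written 5′ to 3′ on the plus strand of GRCm38 (mm10), and none overlaps an annotated untranslated region.
Pip5k1c, chr10:81293101-81293340: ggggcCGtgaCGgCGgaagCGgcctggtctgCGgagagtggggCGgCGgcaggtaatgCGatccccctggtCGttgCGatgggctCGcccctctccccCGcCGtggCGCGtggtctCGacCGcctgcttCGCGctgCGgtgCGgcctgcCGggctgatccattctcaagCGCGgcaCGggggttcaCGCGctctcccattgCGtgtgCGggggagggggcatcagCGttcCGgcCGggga
Spice1, chr16:44347621-44347800: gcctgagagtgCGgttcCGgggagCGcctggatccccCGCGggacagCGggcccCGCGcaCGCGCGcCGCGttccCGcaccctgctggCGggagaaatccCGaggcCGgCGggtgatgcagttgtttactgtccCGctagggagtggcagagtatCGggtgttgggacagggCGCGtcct
Ska2, chr11:87109401-87109580: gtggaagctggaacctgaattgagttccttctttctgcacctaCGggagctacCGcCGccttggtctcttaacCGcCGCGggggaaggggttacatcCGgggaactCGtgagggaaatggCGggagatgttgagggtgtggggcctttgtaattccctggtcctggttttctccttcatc
Ostf1, chr19:18631301-18631500: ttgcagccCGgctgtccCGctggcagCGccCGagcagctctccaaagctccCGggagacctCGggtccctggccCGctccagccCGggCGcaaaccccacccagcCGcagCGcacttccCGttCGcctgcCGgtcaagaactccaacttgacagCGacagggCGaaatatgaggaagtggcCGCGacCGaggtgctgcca
Gm25541, chr2:27539801-27539960: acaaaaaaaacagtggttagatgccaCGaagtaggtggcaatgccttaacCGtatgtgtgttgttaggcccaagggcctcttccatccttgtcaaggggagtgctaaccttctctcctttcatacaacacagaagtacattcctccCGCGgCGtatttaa
The Pip5k1c member held 32 CpGs in 240 bp and had a GC content of 73.3%, the Spice1 member held 22 in 180 bp, and the Gm25541 member held 5 in 160 bp. For comparison, a pair of footprinted promoter peaks closest in height to the highest members is written the same way, with the bases of replicate 1 footprints in capitals. The nearest transcription start sites (TSSs) belong to the noncoding gene Gm34150 and the pseudogene Rpl35a-ps3.
Gm34150, chr15:36375221-36375380: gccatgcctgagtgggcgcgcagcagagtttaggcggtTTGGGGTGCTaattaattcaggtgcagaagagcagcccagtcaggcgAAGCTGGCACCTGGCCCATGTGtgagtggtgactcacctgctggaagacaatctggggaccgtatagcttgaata
Rpl35a-ps3, chr17:29136401-29136580: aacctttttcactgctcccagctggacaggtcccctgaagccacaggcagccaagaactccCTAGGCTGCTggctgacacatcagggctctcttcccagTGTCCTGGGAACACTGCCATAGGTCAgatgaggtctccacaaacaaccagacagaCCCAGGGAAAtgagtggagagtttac
These peaks carried 2 and 3 footprints, and their CpG counts were 5 and 0. The pair was poorer in CpG than footprinted promoter peaks weighted to the members' heights, which averaged 5.47 CpGs per 100 bp. Closeness in height was by the geometric mean of both libraries, and the Gm34150 peak was 2.32 and 4.17 high in replicates 1 and 2.

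The members were modest in height among the high peaks. Their heights, the authors' value for each peak, ran from 0.872 through a median of 1.17 to 4.17 in replicate 1, and from 0.691 through 1.03 to 2.74 in replicate 2. Only 29 lay in the top 25% of heights in both libraries. At the limit, the lowest members had a replicate 1 height of 0.872, and the nearest peaks left out for height had 0.863. The height was a whole multiple of 0.00855 in replicate 1 and of 0.00497 in replicate 2 for 100% of peaks below 1, within 0.05 of a step. The median member thus stood 137 steps high in replicate 1 and 208 in replicate 2. If a step is worth 1 cut, the replicate 2 library was 1.72 times as deep.

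Footprints were more often called in replicate 2. Of the 4904 high replicate 1 peaks without a footprint, 3441 (70.2%) overlapped a high replicate 2 peak that had one, and 1003 (20.5%) were members. A further 188 had a lower partner and 272 had no partner. The replicate 1 peaks that gained a footprint in replicate 2 lay within 1 kb of a TSS in 54.3% of cases and had a mean GC content of 59.3%, against 86.3% and 65.4% for the members. The values were 68.6% and 65.5% for the 188 with a lower partner, and 72.4% and 63.4% for the 272 with no partner. A high GC content was thus not particular to the members among these peaks. Below the height limit, 45.6% of replicate 1 peaks and 23.7% of replicate 2 peaks had no footprint. The part of depth in which peaks became members was not tested.

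The comparison peaks were the shared high peaks with a footprint in both libraries, 56502 in all, of which 33128 lay within the height range of the members. They were weighted to the members' distribution over 10 classes of height, taken as the geometric mean of both libraries, and are called footprinted peaks of like height. Among members and footprinted peaks together, members made up 12.3% of the lowest class and 0.6% of the highest. The members tended to be lower in replicate 2: the ratio of replicate 2 to replicate 1 height had a median of 0.844, against 1.05 in footprinted peaks of like height. Replicate 1 was the higher of the pair in 759 members (75.7%) and in 43.2% of footprinted peaks. Both heights and the footprint calls of both libraries entered the selection. These values therefore describe how the peaks were chosen and are not results.

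The tissue label was checked at gene starts, where a peak near a TSS was counted for each gene. One lay at 14 of 15 proximal tubule genes and 8 of 9 loop of Henle genes in each library, at 6 and 7 of 7 podocyte genes, and at 9 of 9 endothelial genes. It lay at 2 and 3 of 7 immune genes and at 0 and 1 of 5 erythroid genes. Most of the listed kidney epithelial and endothelial genes thus had a peak near a TSS, and most of the listed blood cell genes had none. The share over all genes is not given beside these counts, so they do not show how far the lists stand apart from other genes.

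The members were promoter-proximal sites. The midpoint lay within 1 kb of a GENCODE TSS in 866 of 1003 (86.3%, 84.1 to 88.4), against 18.3% (17.6 to 18.9) of footprinted peaks of like height, a difference of 68.1 percentage points (65.9 to 70.3). Outside this promoter class, 21 members (2.09%) lay in exons, 77 (7.68%) in introns and 39 (3.89%) between genes. The corresponding shares of footprinted peaks were 5.91%, 46.8% and 29%. In each of the 10 height classes, between 82.0% and 93.1% of members and between 16.0% and 22.8% of footprinted peaks were at promoters. The promoter share did not fall gradually with footprint number: at like height it was 16.8% in peaks with 1 replicate 1 footprint, 17.5% with 2, 18.8% with 3 and 26.2% with 4 or more. Peaks with many footprints were therefore more often at promoters than peaks with 1, and the members stood apart from both.

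Around the TSS, the members lay downstream. Of the 866 promoter members, 729 (84.2%, 81.6 to 86.5) had their midpoint on the transcribed side of the nearest TSS, against 53.8% (52.0 to 55.7) of footprinted promoter peaks of like height. The median position was +373 bp, with an interquartile range of +177 to +531 bp, where the footprinted peaks had a median of +18 bp. Footprinted promoter peaks of any height had a median of -27 bp. Between 200 and 400 bp downstream lay 30.6% of promoter members and 8.5% of footprinted peaks, and between 400 and 600 bp lay 25.9% and 9.9%. In the 200 bp just upstream the order turned, with 5.9% of members and 26.2% of footprinted peaks. Of the 137 promoter members upstream of their nearest TSS, 66 lay downstream of some other TSS within 1 kb. In all, 795 promoter members (91.8%, 89.8 to 93.5) were downstream of at least one TSS within 1 kb, against 60.8% of footprinted peaks. The midpoint was in an intron in 535 promoter members (61.8%) and in an exon in 288 (33.3%). The shares among footprinted promoter peaks were 41.0% and 35.6%, so the intron share was 20.8 percentage points higher (17.1 to 24.5), while the exon shares differed by less than counting error (-2.39 percentage points, -6.01 to 1.24).

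**Figure D1:**
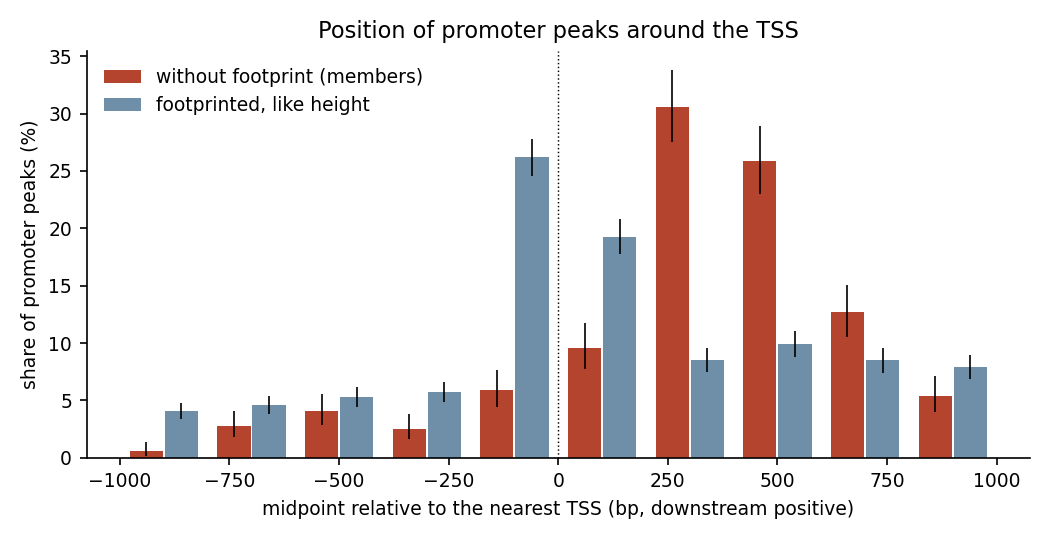
Share of promoter peaks by position of the midpoint, in 200 bp bins around the nearest TSS (x axis, bp, downstream positive; y axis, percent), for the 866 promoter members and for footprinted promoter peaks of like height, with 95% intervals over peaks. The members peak between 200 and 600 bp downstream, and the footprinted peaks in the bins on either side of the TSS.

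Nearly every member stood beside a higher peak. Another replicate 1 peak higher than the member lay within 1 kb of 984 members (98.1%, 97.1 to 98.9), against 20.6% (19.9 to 21.2) of footprinted peaks of like height. In replicate 2 the numbers were 988 (98.5%) and 22.3%. A peak at least 5 times as high lay within 1 kb of 760 members (75.8%, 73.0 to 78.4) in replicate 1 and 792 (79.0%, 76.3 to 81.4) in replicate 2, and of 4.69% and 5.02% of footprinted peaks. Where there was a higher peak, the highest within 1 kb was a median of 8.49 times the member's height in replicate 1 and 9.16 times in replicate 2. It carried a footprint in 976 of 984 cases in replicate 1 and had a median of 5. These higher peaks had a median height of 11.2 in replicate 1. Of all high replicate 1 peaks, only 7.8% held no footprint, and the share at other peaks of such height was not computed. The midpoint of the higher peak was a median of 550 bp from that of the member, with an interquartile range of 430 to 730 bp. In 746 of the 863 promoter members with such a peak (86.4%), the higher peak was closer to the TSS or across it. The same share was not computed for footprinted promoter peaks, so it cannot be called particular to the members.

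The gap to the nearest peak was short. Its median was 200 bp in each library, and another peak lay within 500 bp of 935 members (93.2%, 91.5 to 94.7), against 26.0% of footprinted peaks. The nearest footprint of the same library was a median of 252 bp away in replicate 1 and 184 bp in replicate 2. A footprint within 100 bp was found for 40 members (3.99%) in replicate 1 and 171 (17.0%) in replicate 2. The members lay inside long accessible stretches. The longest run of bases with a deposited false discovery rate up to 0.001 that touched the peak had a median length of 903 bp in replicate 1 and 986 bp in replicate 2, against 201 and 256 bp for footprinted peaks. On average 91.4% of a member's bases reached that rate in replicate 1, against 78.4% for footprinted peaks, and 968 members (96.5%) overlapped the authors' stricter peak list, against 88%. Away from promoters these differences were within counting error, at 80.9% against 77.4% of bases and 89.1% against 87.4% on the stricter list.

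The difference in surroundings held at promoters alone. There, 863 of 866 members (99.7%) had a higher replicate 1 peak within 1 kb, against 42.6% of footprinted promoter peaks of like height, and 708 (81.8%, 79.0 to 84.3) against 15.2% had one at least 5 times as high. Restricted further to midpoints 200 to 600 bp downstream of the TSS, the shares with a peak at least 5 times as high were 84.3% of 490 members and 22.7% of 1117 footprinted peaks. Counted the other way, members were 708 (51.6%, 49.0 to 54.3) of the 1371 promoter peaks of their height range that had such a neighbour, and 158 (2.66%) of the 5951 promoter peaks without one. Away from promoters the shares were 52 of 477 (10.9%) and 85 of 26332 (0.323%). These denominators hold members and peaks footprinted in both libraries, and the height of a neighbour comes from the same libraries as the footprint calls.

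Pip5k1c and 2 more of the 15 highest members, picked after their values were seen, show the arrangement. In replicate 1 a peak 21.3 high with 7 footprints reached from -304 to -44 bp relative to the TSS, and the member, 4.17 high, from +96 to +336 bp. In replicate 2 the heights were 25.1 and 2.31. At Pi4ka, a phosphatidylinositol kinase gene, the peak over the TSS was 31.9 and 29.5 high with 5 and 4 footprints, and the member at 372 to 572 bp was 2.48 and 2.06 high. At Spice1 both peaks lay downstream, the footprinted one (15.5 and 18.8 high) starting 200 and 180 bp from the TSS and the member (3.41 and 2.36 high) at 500 and 520 bp. In each of these genes, both libraries placed the member on the far side of the footprinted peak, beyond the last footprint.

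**Figure D2:**
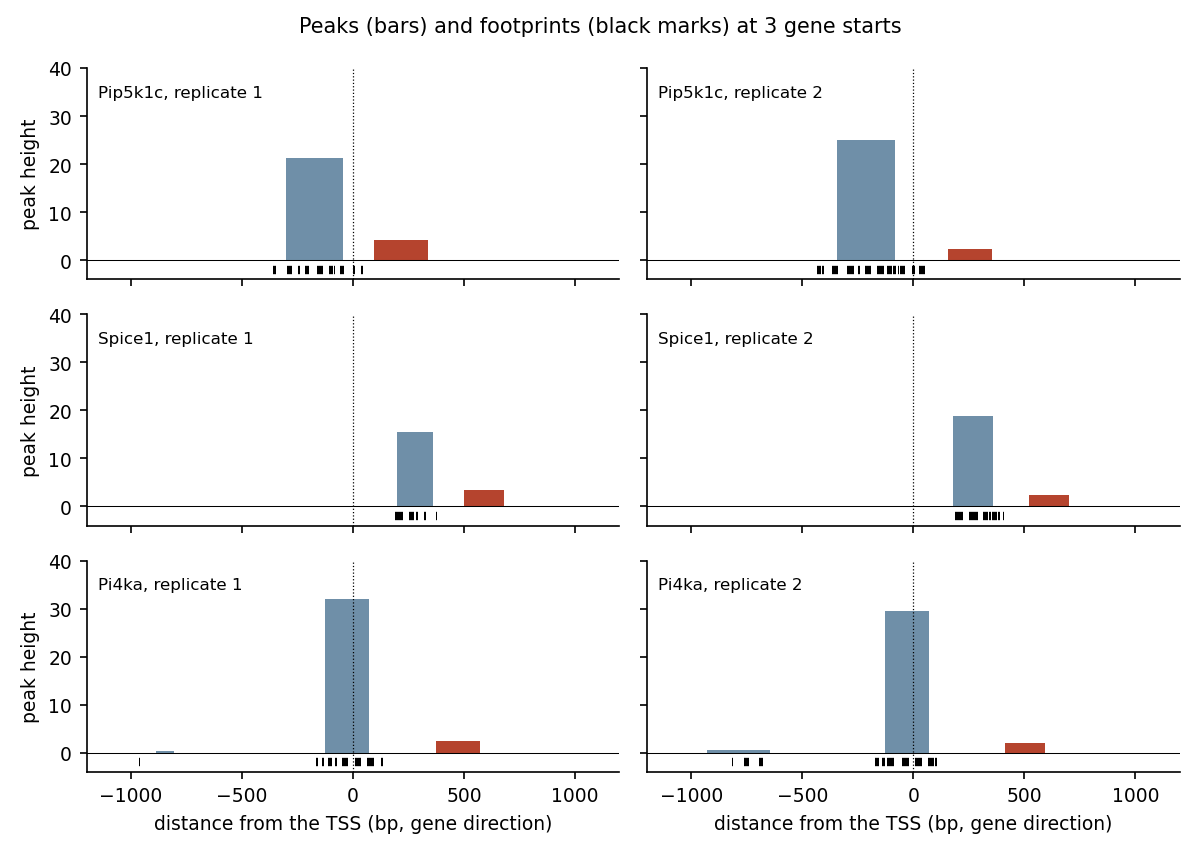
Peaks (bars, width to scale, y axis peak height) and footprints (black marks under the axis) within 1200 bp of the TSS of Pip5k1c, Spice1 and Pi4ka in replicate 1 (left) and replicate 2 (right), x axis in bp along the gene. The member (red) is the low bar downstream of the high footprinted peak (blue), with no mark under it in either library.

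**Figure D3:**
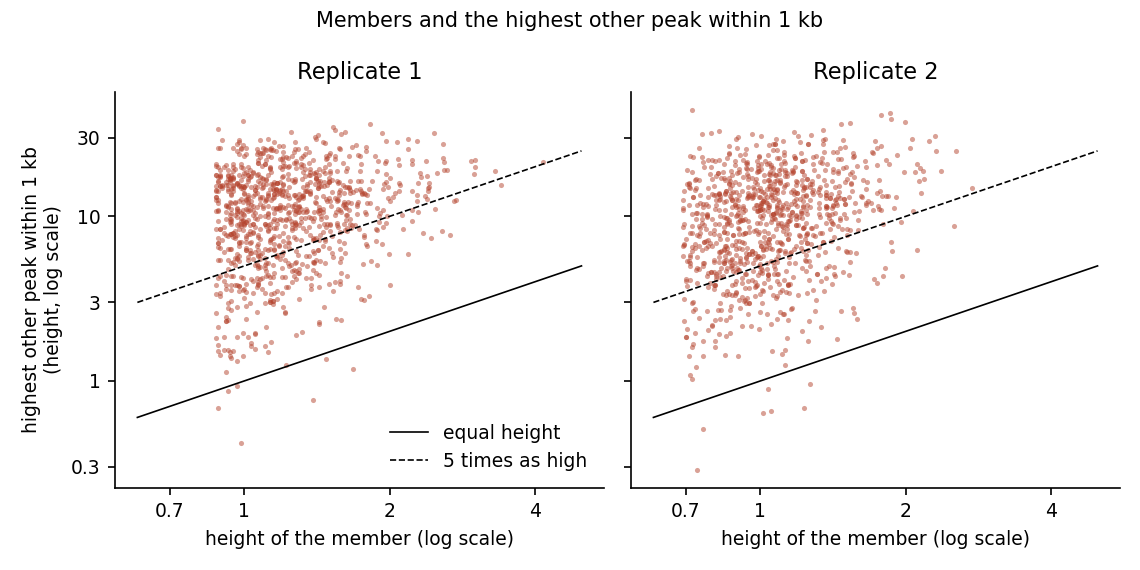
Height of each member (x axis, log scale) against the highest other peak within 1 kb in the same library (y axis, log scale), in replicate 1 (left) and replicate 2 (right), with lines at equal height and at 5 times the height. Each point is 1 member, members with no other peak within 1 kb are not drawn, and nearly all points lie above the line of equal height.

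The members were rich in GC and CpG. Mean GC content was 65.4% (SD 8.39 over 1003 members), against 54.7% in footprinted peaks of like height, a difference of 10.8 percentage points (10.2 to 11.3). The ratio of observed to expected CpG averaged 0.730 (SD 0.242), against 0.315, and there were 8.17 CpGs per 100 bp against 2.61. GC content over 50% together with a CpG ratio over 0.6, values often used to define CpG islands, was met by 720 members (71.8%, 68.9 to 74.6) and by 11.2% of footprinted peaks. The difference was smaller among promoter peaks alone, where the GC content was 66.6% in members and 60.7% in footprinted peaks, and the CpG ratio 0.771 and 0.530 (difference 0.241, 0.222 to 0.259). At midpoints 200 to 600 bp downstream it was 0.798 against 0.595. Conversely, when footprinted peaks were weighted for height and CpG ratio together, 49.7% of them were at promoters, 36.6 percentage points (34.1 to 39.2) below the members. This weighting did not fully match base content. The mean CpG ratio was still 0.730 in members and 0.666 in footprinted peaks, and the GC content 65.4% and 62.3%.

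The members were also wider. Mean width was 275 bp (SD 104) against 202 bp, and the medians were 260 and 180 bp. Peaks from 300 to under 400 bp made up 23.0% of members and peaks of 400 bp or more 11.6%, against 5.65% and 2.31% of footprinted peaks. Members of 250 bp and over were at promoters in 91.7% to 92.2% of cases, and the 63 members under 150 bp in 73.0%.

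**Figure D4:**
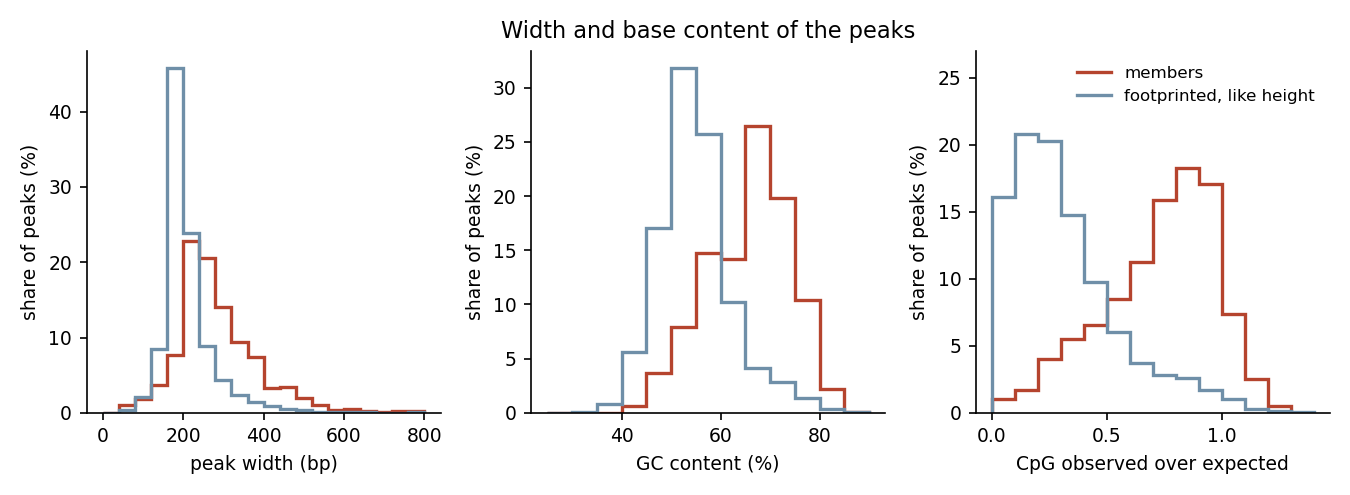
Distribution of peak width (left, bp, values over 800 in the last bin), GC content (middle, percent) and CpG observed over expected (right) in the 1003 members and in footprinted peaks of like height, y axes in percent of peaks. The members lie to the right in each panel, with medians of 260 against 180 bp, 66.4 against 53.9% and 0.776 against 0.261.

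Repeats were fewer in the members. Soft-masked bases of the reference, which mark interspersed and simple repeats, made up 5.40% of a member on average (SD 9.12) and 10.4% of a footprinted peak, a difference of -5.01 percentage points (-5.63 to -4.39). There was no masked base in 593 members (59.1%) and in 48.7% of footprinted peaks. Only 6 members (0.598%) were masked over at least 50% of their length, against 3.78%. They lay nearest to Arhgap35, Gm6012, Cntrl, Gm23057, Chuk and Tut4. An unbroken simple repeat of 20 bp or more occurred in 40 members (3.99%) and 3.25% of footprinted peaks, a difference within counting error (-0.51 to 1.99).

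Sequence copied elsewhere in the genome was not more frequent. A stretch of 32 bases found more than once in the assembly lay in 64 members (6.38%, 4.95 to 8.08) and in 8.87% of footprinted peaks, a difference of -2.49 percentage points (-4.07 to -0.903). The member at Zfp119b, in a zinc finger gene, held 116 such stretches with up to 3 copies, and the Gm11399 member, in an antisense gene, held 77. The snRNA-associated Gm25541 member held 28. No member held a 32-base stretch of the mitochondrial sequence or overlapped a tRNA gene of the RefSeq annotation, and 0 of 1003 allows a share of up to 0.299% for each, taken as 3 counts, or 0.367% by the upper bound of the exact interval. The shares of footprinted peaks of like height were 0% and 0.0658%, below these limits, so the members could not be told from them. Only 6 members were on the X chromosome (0.598%, 0.220 to 1.30, against 1.73% of footprinted peaks). They lay at Usp9x, Hprt, Ppp1r3f, Huwe1, F8a and Prrg1, all within 1 kb of a TSS and all downstream of it.

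Consensus motifs were searched on both strands in the 150 bp around each midpoint. The SP/KLF motif GGGCGG, bound by zinc finger activators of CpG island promoters, occurred in 374 members (37.3%, 34.3 to 40.4), in 13.3% of footprinted peaks of like height and in 24.9% of all shared footprinted peaks. Among promoter peaks it was in 40.3% of members and 31.2% of footprinted peaks. With promoter peaks weighted for height and CpG ratio together it was in 42.6% of footprinted peaks, a difference of -2.25 percentage points (-6.22 to 1.71). No excess was thus seen under this weighting, which left mean GC content at 66.6% in members and 65.2% in footprinted peaks. The mean CpG ratio was 0.771 and 0.719. At midpoints 200 to 600 bp downstream, without weighting for CpG, the motif was in 43.3% of 490 members and 31.7% of 1117 footprinted peaks. The CTCF motif CNAGGNGGC, of the insulator protein, was in 6.68% of members and 7.45% of footprinted peaks, within counting error.

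Several other motifs were rarer in the members. The AP-1 motif TGANTCA was in 2.79% of members against 5.46% of footprinted peaks, the NFI motif TGCCAAG in 2.59% against 6.39%, and the TEAD motif CATTCCA in 0.798% against 3.15%. Among promoter peaks weighted for height and CpG ratio these differences were within counting error, at -1.18 percentage points (-2.39 to 0.04) for AP-1, -0.442 (-1.72 to 0.837) for NFI and -0.0876 (-0.803 to 0.627) for TEAD. Away from promoters AP-1 was in 8.76% of members against 5.85%, which was also within counting error, NFI was in 2.19% against 6.78%, and TEAD was in 0 of 137, which allows a share of up to 2.19% by 3 counts, against 3.50%. The promoter motif NFY, CCAATCA, was in 0.598% against 1.83%, and the TATA box, TATAAA, in 0.499% against 3.27%. Both were also rarer among promoter peaks weighted for height and CpG ratio. The shares were 0.577% against 2.46% for NFY and 0.462% against 2.93% for the TATA box. Position around the TSS was not matched. In the 200 bp just upstream lay 5.9% of promoter members and 26.2% of footprinted promoter peaks of like height. Neither motif was compared at like position. The NRF1 motif GCGCNTGCG changed sides. It was in 1.79% against 0.808% over all peaks, and in 1.85% against 3.09% among promoter peaks weighted for height and CpG ratio. Over all peaks the ETS motif CCGGAAG was commoner in members (3.59% against 2.16%), as was the Pol III B box GTTCGANTC (0.499% against 0.0404%). The HNF1 motif (0.399% against 0.918%) and the HNF4 motif (0.199% against 0.942%) were rarer. Under the promoter weighting these differences were within counting error. The remaining searched motifs are not listed. A motif match is a string of letters in the window, and its absence says nothing about the factor.

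The nearest genes were mostly protein-coding. The nearest TSS belonged to a protein-coding gene for 850 members (84.7%, 82.4 to 86.9) and for 55.8% of footprinted peaks, and to a small RNA gene for 20 (1.99%) against 7.59%. Among promoter peaks weighted for height and CpG ratio the differences were smaller, at 88.8% against 78.1% and 1.15% against 2.33%. Away from promoters both were within counting error, at 59.1% against 51.9% and 7.30% against 8.64%. In all, 515 of the 21924 protein-coding genes in the annotation had a member within 500 bp of a TSS. Among the 15 highest members by geometric mean height were those nearest to Pip5k1c, Spice1, Nr1h3, Ska2, Ostf1, Arih1, Zfyve21, Prune1, Gm25541, Hes1, Gm11399, Pi4ka, Ppia and 1110002L01Rik. The member at Nr1h3, the gene of the sterol-sensing receptor LXR alpha, was 2.67 and 2.52 high in replicates 1 and 2. At Arih1, a ubiquitin ligase gene, the heights were 2.95 and 2.14. The member at Ppia, the gene of cyclophilin A, covered the TSS with its midpoint 141 bp upstream, was 3.01 and 1.67 high and had a GC content of 79.1%. All but the Hes1 member were within 1 kb of a TSS. Hes1 encodes a Notch-responsive repressor, and its member, 2.73 and 1.91 high, lay 1679 bp upstream of it between genes.

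Among protein-coding genes with a member within 500 bp of a TSS, the 20 with the highest were Pip5k1c, Nr1h3, Ska2, Ostf1, Zfyve21, Pi4ka, Ppia, Cldn12, Med1, Ghr, Arhgap35, Ccm2, Qdpr, Sypl, Zranb2, Ddit3, Pea15a, Kat6b, Spata13 and Prkab2. Several have general cellular roles. Med1 encodes a Mediator subunit (heights 2.35 and 2.08), Kat6b a histone acetyltransferase (2.58 and 1.49), Ddit3 a stress-response transcription factor (2.19 and 1.85) and Prkab2 a subunit of the energy sensor AMPK (2.58 and 1.47). Ghr, the growth hormone receptor gene, had a member 379 bp upstream of the nearest TSS with heights of 2.56 and 1.86. At Arhgap35 the libraries differed most among these 20, with 3.31 in replicate 1 and 1.38 in replicate 2. The positions relative to the TSS ran from -379 bp at Ghr to +493 bp at Pea15a, and the CpG ratios from 0.358 at Nr1h3 to 1.00 at Pip5k1c.

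Gene lists were matched by the protein-coding gene with the nearest TSS, passing over other genes that started nearer. No member had as its nearest protein-coding gene any of 15 proximal tubule, 9 loop of Henle, 9 endothelial, 8 stromal and smooth muscle, 7 immune or 5 erythroid genes, nor any of 1464 olfactory and vomeronasal receptor genes. Footprinted peaks within the members' height range lay nearest to 14, 8, 9, 8, 4, 2 and 56 genes of these lists. With 1003 members, lists this short were met by 0.212% of footprinted peaks or less, and the receptor list by 0.258%, so a share of 0, which allows up to 0.299% by 3 counts and 0.367% by the exact interval, could not be told from them at this number. Among 7 distal convoluted tubule genes, members were matched to Wnk1, a kinase gene that controls salt transport (heights 1.77 and 1.58), and to Klhl3, 47141 bp away, where the nearest TSS of any gene was that of Mir874. Among 12 collecting duct genes a member lay at Tfcp2l1, a transcription factor gene (1.23 and 1.06), and among 7 podocyte genes at Cd2ap, an adaptor of the slit diaphragm (1.31 and 0.939). These were 0.199% of members against 0.0401% of footprinted peaks for the distal convoluted tubule list, 0.0997% against 0.0918% for the collecting duct and 0.0997% against 0.0849% for podocytes. Each share of footprinted peaks lay within the interval of the members.

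The other gene lists held members in small numbers. Of 10 housekeeping genes, Ppia, Hprt and Eef2 were nearest to a member, with Hprt, a purine salvage gene, at 1.77 and 1.27 and Eef2, a translation elongation factor gene, at 1.47 and 1.5. The 3 members at housekeeping genes were 0.299% (0.0617 to 0.872) of members, against 0.0250% of footprinted peaks. Of 32 splicing genes, Srsf7, Srsf2 and Srsf3 had members, all genes of SR splicing factors, with replicate 1 heights of 2.32, 1.56 and 1.45. Of 78 mitochondrial ribosomal protein genes, 4 were nearest to 5 members: Mrps9, Mrpl48 with a pair of adjoining members, Mrps35 and Mrps24. Of 50 proteasome genes, Psmb10 and Psma7 had members, of 88 ribosomal protein genes Rpl34 and Rpl35a, of 67 histone genes Hist2h4, and of 39 Hox genes Hoxb4 and Hoxa5. The member matched to Hist2h4 lay nearer to the TSS of Gm38227, and the one matched to Hoxb4, 7011 bp away, nearer to that of Hoxb5os. For 424 zinc finger genes there were 19 members (1.89%, 1.14 to 2.94) at 17 genes, against 1.68% of footprinted peaks. Among these the highest were at Zfp119b, Zfp871 and Zfp623. Only for the housekeeping list did the share of footprinted peaks lie outside the interval of the members, and that rests on 3 members.

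The 137 members away from promoters shared part of the pattern. They had a mean GC content of 58.0% against 53.3% in footprinted peaks of like height away from promoters, a CpG ratio of 0.471 against 0.267 (difference 0.204, 0.159 to 0.248) and a width of 237 against 197 bp. A higher replicate 1 peak lay within 1 kb of 121 of them (88.3%, 81.7 to 93.2), against 16.1% of footprinted peaks. One at least 5 times as high lay within 1 kb of 52 (38%), against 2.42%. After Hes1, the highest were nearest to Gm13039, a pseudogene, to Frmd8os, an antisense gene, and to Junb, whose protein is part of AP-1; these were picked after their values were seen. The Junb member lay 2427 bp downstream of the TSS and was 2.28 and 1.44 high.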

How the data were processed

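DNase-seq of kidney from 2 male mice was analysed as 1 group. Each library came with 2 peak lists, footprints, and per-base false discovery rates, all deposited on mm10 per the labels. Peaks were called per library and not on pooled samples, per the deposited file descriptions. The deposited peak height is a signal value whose unit the sources do not state. The deposited footprint and per-base lists hold false discovery rates (q-values, not p-values of a test made here): 0.01 for every footprint, and rates listed only below 0.05 per base. No aligner, caller or version is given in the sources used here, nor is how CAST/EiJ reads were aligned to a C57BL/6J assembly. Absolute depth is unknown.

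The longer peak list was used, with 125393 and 177001 peaks, 237471 and 493495 footprints. Overlaps used bedtools 2.31.1 with at least 1 bp. Location came from GENCODE M21 basic (any transcript's TSS), sequence and masking from GRCm38.p6. The nearest TSS is measured from the peak midpoint. Shares of members have exact Clopper-Pearson 95% intervals, and differences have stratified 95% intervals over 10 height classes, computed with Python 3.11.15, numpy 2.4.6, pandas 2.3.3 and scipy 1.17.1. The weighting and the search for copied 32-base stretches were tested on simulated data. The members, gene lists and motifs were chosen with earlier results of these data known. Named genes are the 15 highest members, the 20 protein-coding genes with the highest member within 500 bp of a TSS, and up to 3 genes per list, highest member first; 1 of the highest members is not reported here. The ribosomal list leaves out S6 kinase genes, a correction made after seeing the data. Alternatives are given in the closing section. Those for neighbouring peaks, TSS side, CpG weighting, promoter class and tRNA genes were chosen after seeing the data.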

Additional observations from a re-analysis of the deposited data

How the results depend on the processing

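No paired analysis was possible because both libraries form 1 group. All 90 differences recomputed under alternatives kept their sign, and none reversed. Of all 96 alternative values, counts of members included, 44 moved beyond the limits given below. The number of members depended on the rule: 29 with the top 25% of heights, 163 with the stricter peak list, and 2643 to 4904 with 1 library taken alone. With 1 library alone the differences were 42.1 to 55.2 percentage points for TSS within 1 kb, -5.11 to -3.19 for masked bases, 6.56 to 7.86 for GC content, 37.9 to 58.9 bp for width, 0.241 to 0.313 for the CpG ratio, 56.9 to 65.2 points for a higher peak within 1 kb and 24.4 to 24.8 for the downstream side. With the top 25% of heights they were 8.25 points for GC, 0.321 for CpG, -0.392 points for copied stretches, 29.5 bp for width and 36.0 points for the downstream side, which was 37.8 with the stricter list. Against all footprinted peaks without weighting they were 52.3 points for TSS, -3.02 for masked bases, 8.21 for GC, 0.294 for CpG, -0.445 for copied stretches and 49.2 for the downstream side. The copied-stretch interval included 0 under both of these settings, with the stricter list and away from promoters. Weighting for height and width together gave 9.34 points for GC and 71.0 for a higher peak. Weighting for height and CpG gave 36.6 for TSS, -2.55 for masked bases, 3.18 for GC, 49.2 bp for width, 63.9 points for a higher peak and 27.3 for the downstream side. Promoter peaks alone gave -3.09 points for masked bases, 5.91 for GC, 0.241 for CpG, 57.6 bp for width and 57.1 points for a higher peak. Peaks away from promoters gave 4.65 points for GC, 0.204 for CpG and 39.9 bp for width. The cause of these changes was not tested, except that counts fall by construction under stricter rules. The remaining 52 of 96 values did not move beyond the limits, and include the -5.11 and 58.9 bp given above for 1 library alone. Of these 52, 2 were counts of members within 1.5 times the main count, 834 and 982. The others stayed within the spread of the 2 libraries taken alone or the interval over peaks, whichever was wider. With 2 libraries, differences between mice could not be estimated, and footprints missed for lack of cuts cannot be told apart from footprints that are not there.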

Other observations

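Promoter members more often had start sites of both strands nearby. TSSs of both strands were within 1 kb of 201 of the 866 promoter members (23.2%, 20.4 to 26.2), against 10.3% (9.13 to 11.4) of footprinted promoter peaks of like height. Read on the strand of the nearest gene, G exceeded C in 534 promoter members (61.7%, 58.3 to 64.9) and in 57% of footprinted promoter peaks, a difference of 4.63 percentage points (0.891 to 8.36). The mean excess of G over C, as a share of both, was 4.35% in members and 2.47% in footprinted promoter peaks. At midpoints 200 to 600 bp downstream of the TSS it was 5.43% against 3.36%, a difference of 2.07 percentage points (0.216 to 3.92).

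In replicate 1, 19 members had no higher peak within 1 kb, and they lay nearest to Gm11399, Cited2, Misp, Ccdc85b, Man1a, Gm13921, Gm27197, Itsn1, Slc12a7, Arhgef7, Lrrc8dos, Pth1r, Sox13, Jmy, Gm12219, Siah1a, Gm10171, Nsd1 and Slc47a1. Pth1r, the parathyroid hormone receptor gene, and Slc47a1, a renal cation exporter gene, are used in kidney tubules. Their members were 0.983 and 1.02 high in replicate 1, and the member nearest to Cited2, a transcriptional coregulator gene, was 1.68 high in replicate 1 and 1.22 in replicate 2. The highest other peak within 1 kb of the Cited2 member was 1.19 in replicate 1 and 2.00 in replicate 2, where it exceeded the member. These members were singled out after their values were seen.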
